A study of Mus musculus with 6 samples.

Results

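Mitochondrial fatty acid oxidation was followed here through 10 genes taken by symbol: Cpt1a, Cpt1b, Cpt2, Acadm, Acadl, Acadvl, Hadha, Hadhb, Acot2 and Pdk4. All 10 were found among the 55401 gene IDs of the count table, and all 10 were among the 19833 genes with enough counts to be tested. The study compared the aorta of ApoE-/- mice with that of IL16-/-ApoE-/- mice, called double mutants below, by RNA sequencing of 3 samples per group. Both groups lack apolipoprotein E, the lipoprotein ligand whose loss raises plasma cholesterol and leads to atherosclerosis in mice, and both received high-fat food from the age of 8 weeks on, over 24 weeks. The double mutants also lack interleukin 16, a cytokine that attracts CD4+ T cells. Every group therefore carried the Apoe mutation and the diet, and no wild-type or chow-fed group was analysed here. The deleted part of either gene, the sex of the mice, and whether a sample is 1 animal or a pool were not given in the sources used here. The p-values therefore measure only how far these samples spread, which may be partly technical. The samples are whole tissue, in which fewer cells of a type and less RNA per cell cannot be told apart.

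Long-chain fatty acids enter mitochondria as acylcarnitines. Carnitine palmitoyltransferase 1 on the outer membrane makes the acylcarnitine, a translocase carries it across the inner membrane, and carnitine palmitoyltransferase 2 turns it back into acyl-CoA. In the matrix, acyl-CoA dehydrogenases and the mitochondrial trifunctional protein shorten the chain in repeated rounds that release acetyl-CoA and feed electrons to the respiratory chain. Nuclear receptors of the PPAR family switch on many of these genes during fasting and lipid load. Brown fat, heart and kidney tubule burn fatty acids at high rates, and perivascular adipose tissue lies directly around the aorta.

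Promoter windows from RefSeq (GRCm38.p6), each running from 250 bases before to 50 bases after the annotated gene start, were found for 9 of the 10 genes, all but Cpt1b. The Hadhb window is printed because Hadha and Hadhb, which encode the subunits of 1 enzyme, stand head to head on chromosome 5. Their annotated starts in GENCODE M21 (GRCm38) are separated by the 85 bases in capitals, and their RefSeq windows share 228 bases. The other windows are printed because each holds the letters AGGTCA, in capitals on whichever strand they occur (TGACCT on the reverse strand), a sequence that nuclear receptors bind. Each is written 5′ to 3′ on the strand of its gene.
Hadhb, chr5:30155003-30155302, + strand: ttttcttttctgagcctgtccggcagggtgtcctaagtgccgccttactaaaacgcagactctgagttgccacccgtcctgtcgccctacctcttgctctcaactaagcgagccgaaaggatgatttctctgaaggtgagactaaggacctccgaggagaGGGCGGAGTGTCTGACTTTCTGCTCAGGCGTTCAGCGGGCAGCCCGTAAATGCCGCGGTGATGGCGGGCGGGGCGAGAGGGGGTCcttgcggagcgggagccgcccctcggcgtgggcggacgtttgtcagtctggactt
Cpt1a, chr19:3323051-3323350, + strand: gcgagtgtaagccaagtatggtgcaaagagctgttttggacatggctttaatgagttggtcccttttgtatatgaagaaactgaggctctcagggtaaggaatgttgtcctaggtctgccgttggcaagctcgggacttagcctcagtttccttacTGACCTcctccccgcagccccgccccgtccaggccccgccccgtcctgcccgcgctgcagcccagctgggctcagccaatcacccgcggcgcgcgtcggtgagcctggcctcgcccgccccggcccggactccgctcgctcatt
Acadm, chr3:153944594-153944893, - strand: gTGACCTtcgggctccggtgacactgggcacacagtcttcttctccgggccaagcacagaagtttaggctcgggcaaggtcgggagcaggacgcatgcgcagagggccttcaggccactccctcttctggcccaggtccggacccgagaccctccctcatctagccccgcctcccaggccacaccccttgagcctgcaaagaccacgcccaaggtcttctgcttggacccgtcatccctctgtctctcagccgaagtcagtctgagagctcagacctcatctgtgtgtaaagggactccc
Acadvl, chr11:70015379-70015678, - strand: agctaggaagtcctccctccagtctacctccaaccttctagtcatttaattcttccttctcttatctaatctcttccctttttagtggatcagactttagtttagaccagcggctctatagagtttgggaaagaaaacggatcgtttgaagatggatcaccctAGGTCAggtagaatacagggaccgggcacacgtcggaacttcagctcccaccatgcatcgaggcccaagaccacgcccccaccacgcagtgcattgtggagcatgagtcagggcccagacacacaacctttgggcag

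AGGTCA, searched on both strands, occurred in 3 of the 9 windows, against 16.3% of the 32851 RefSeq windows of the same length. The longer direct repeat AGGTCANAGGTCA, which contains AGGTCA and is the PPAR element, occurred in 0 of 9, against 0.0396% of all windows. The estrogen-related receptor letters TCAAGGTCA, which also contain AGGTCA, occurred in 0 of 9, against 0.423%. GGGCGG, bound by Sp factors, occurred in 5 of 9 (Cpt1a, Cpt2, Acadl, Hadha and Hadhb), against 35.7%. CCAAT occurred in 3 of 9 (Cpt1a, Acot2 and Pdk4), against 37.4%, and TATAAA in 0 of 9, against 13.6%. These are matches of letters within 300 bases and say nothing of whether a factor was bound.

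The ApoE-/- libraries held 65730552 to 85568269 counts and were deeper than the double mutant libraries, which held 42861980 to 47208779. Levels below are CPM, the usual unit of counts relative to library size, with library sizes adjusted by TMM factors, the trimmed-mean scaling of edgeR. Il16 stood at 28.3, 28.7 and 15.1 CPM in ApoE-/- 1, 2 and 3, against 7.93, 12.1 and 12.2 CPM in double mutants 1, 2 and 3 (log2 fold change -1.16, SE 0.32, edgeR adjusted p = 0.163; DESeq2 adjusted p = 0.0226), so it was counted in every library. Apoe, mutated in both groups, stood at 45.0, 24.9 and 20.9 CPM in the ApoE-/- samples, against 138, 183 and 137 CPM in double mutants (2.34, SE 0.33, edgeR adjusted p = 0.0369). With the deleted exons unknown, neither gene checks the genotype labels. Smooth muscle markers of the aortic wall were detected in every library, with summed levels of 4289 to 27420 CPM in the ApoE-/- samples, against 8613 to 9749 CPM in double mutant samples. The sample ApoE-/- 1 stood apart from the other 5 in sex-linked genes, with Xist at 474 CPM against 0.497 to 6.21 and the Y-linked Ddx3y at 0.143 CPM against 70.1 to 136. The values of ApoE-/- 1 are therefore shown apart, and the main results are given with and without it.

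The carnitine shuttle is the entry step. Cpt1a (ENSMUSG00000024900, chr19:3322334-3385733, + strand, GRCm38), the carnitine palmitoyltransferase 1 that predominates in liver and many other tissues, stood at 89.2, 124.5 and 105.0 CPM in ApoE-/- 1, 2 and 3, against 90.1, 108.9 and 95.6 CPM in double mutants 1, 2 and 3. It was the steadiest of the 10 genes in the ApoE-/- group, and the groups overlapped. Its log2 fold change, always double mutant over ApoE-/-, was -0.11 (SE 0.18, edgeR adjusted p = 0.779). Cpt1b (ENSMUSG00000078937, chr15:89416405-89425863, - strand), the form of muscle and brown fat, stood at 315, 74.6 and 17.7 CPM in the ApoE-/- samples, against 259, 246 and 240 CPM in double mutants. The double mutants lay close together below ApoE-/- 1 and above ApoE-/- 2 and 3, whose levels spanned 17.8-fold with ApoE-/- 1 included. Its log2 fold change was 0.87 (SE 0.89, edgeR adjusted p = 0.65). Cpt2 (ENSMUSG00000028607, chr4:107903981-107923610, - strand) stood at 189, 47.7 and 24.3 CPM in the ApoE-/- samples, against 150, 154 and 134 CPM in double mutants, the same order of samples as Cpt1b, with a log2 fold change of 0.75 (SE 0.70, edgeR adjusted p = 0.62).

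The acyl-CoA dehydrogenases take the oxidation step that opens each round, on very long, long and medium chains. Acadvl (ENSMUSG00000018574, chr11:70010183-70015411, - strand), for very long chains, stood at 859, 202 and 132 CPM in the ApoE-/- samples, against 703, 711 and 654 CPM in double mutants. Acadl (ENSMUSG00000026003, chr1:66830839-66863277, - strand), for long chains, stood at 912, 183 and 135 CPM in the ApoE-/- samples, against 806, 771 and 768 CPM in double mutants. Acadm (ENSMUSG00000062908, chr3:153922357-153944632, - strand), for medium chains and the enzyme missing in the commonest inherited defect of the pathway, stood at 963, 234 and 190 CPM in the ApoE-/- samples, against 722, 702 and 675 CPM in double mutants. In all of them ApoE-/- 1 was the highest sample and ApoE-/- 3 the lowest, and the groups overlapped. The log2 fold changes were 0.79 for Acadvl (SE 0.69), 0.93 for Acadl (SE 0.73) and 0.60 for Acadm (SE 0.63), with edgeR adjusted p of 0.594, 0.553 and 0.659.

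The trifunctional protein carries out the remaining steps on long chains, with the hydratase and dehydrogenase on the subunit encoded by Hadha and the thiolase on that encoded by Hadhb. Hadha (ENSMUSG00000025745, chr5:30118304-30155162, - strand) stood at 766, 244 and 129 CPM in the ApoE-/- samples, against 560.4, 605 and 547 CPM in double mutants. Hadhb (ENSMUSG00000059447, chr5:30155248-30184593, + strand), across the 85 bases printed above, stood at 933, 190.4 and 112 CPM in the ApoE-/- samples, against 736, 707 and 689 CPM in double mutants. Both again ran highest in ApoE-/- 1 and lowest in ApoE-/- 3, with log2 fold changes of 0.59 (SE 0.63, edgeR adjusted p = 0.66) and 0.79 (SE 0.76, edgeR adjusted p = 0.63).

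Acot2 and Pdk4 act beside the chain-shortening steps. Acot2 (ENSMUSG00000021226, chr12:83987861-83993873, + strand), a matrix thioesterase that frees fatty acid from acyl-CoA, was the least abundant, at 30.1, 8.86 and 7.15 CPM in the ApoE-/- samples, against 11.0, 14.2 and 12.7 CPM in double mutants. ApoE-/- 1 stood far above the double mutants here, whose mean was 0.419 of its level. Its log2 fold change was -0.29 (SE 0.55, edgeR adjusted p = 0.817). Pdk4 (ENSMUSG00000019577, chr6:5483351-5496309, - strand), a kinase that shuts down pyruvate dehydrogenase and so spares glucose when fat is burnt, stood at 786, 162 and 61.9 CPM in the ApoE-/- samples, against 425, 417 and 439 CPM in double mutants. The double mutants agreed to within 1.05-fold, while the ApoE-/- samples spanned 12.7-fold. Its log2 fold change was 0.34 (SE 0.84, edgeR adjusted p = 0.859).

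**Figure D1:**
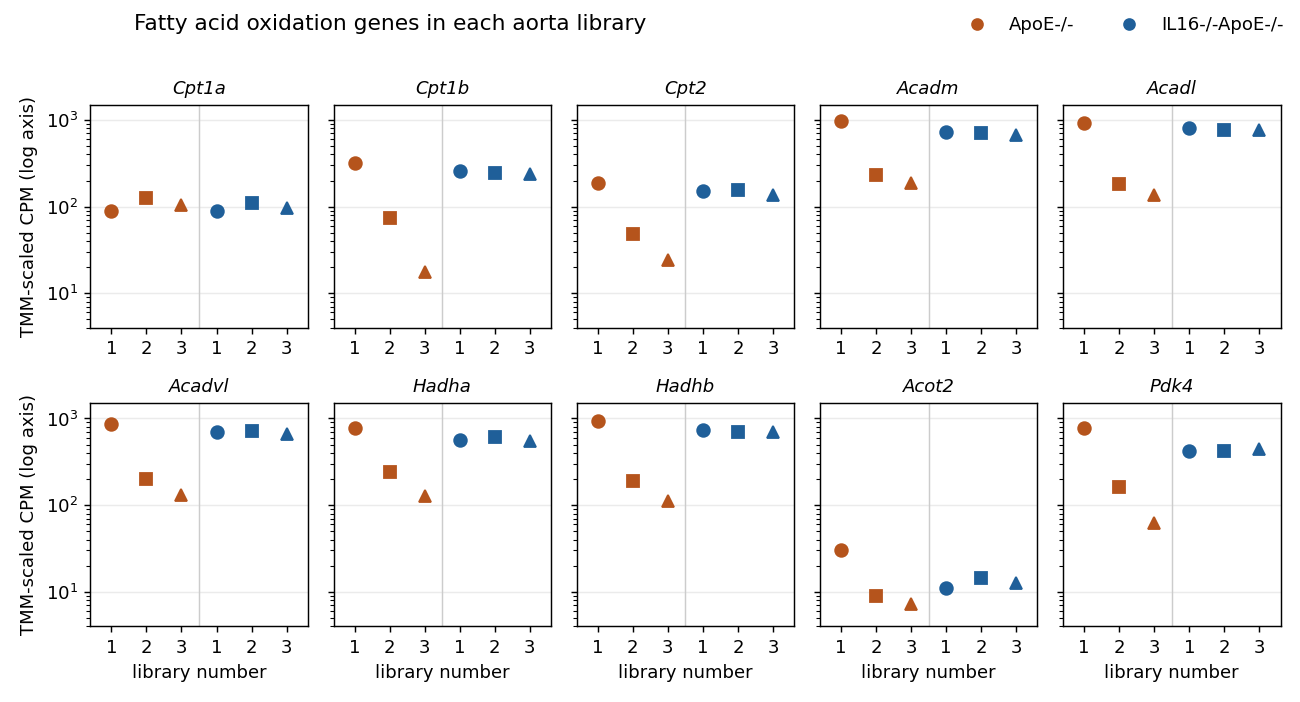
Level of each of the 10 genes in each sample, in TMM-scaled CPM on a log axis. Colours separate ApoE-/- from IL16-/-ApoE-/- samples, and marks give the sample number within a group. ApoE-/- 1 is the highest point for 9 of the 10 genes and ApoE-/- 3 the lowest for 9, while the double mutants sit close together.

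By edgeR's quasi-likelihood test with Benjamini-Hochberg adjustment over all 19833 genes, 0 of the 10 genes were higher and 0 lower in double mutants at an adjusted p under 0.05, and 0 had an unadjusted p under 0.05. Among all tested genes 1.2% passed that threshold, 1.14% as higher and 0.0605% as lower, and 15.9% had an unadjusted p under 0.05. DESeq2 and limma-voom also called 0 of the 10, where they called 8.59% and 2.06% of all genes they tested. The fold change was positive for 8 of the 10 and negative for Cpt1a and Acot2, with a median log2 of 0.67, beside -0.05 over all tested genes. The groups overlapped for all 10, whereas 26.4% of all tested genes had groups that did not overlap.

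The spread lay within the ApoE-/- group. The SD of log2 CPM had a median of 1.45 over the 10 genes in ApoE-/- and 0.065 in double mutants, beside 0.51 and 0.17 over all tested genes. ApoE-/- samples spanned between 1.40-fold (Cpt1a) and 17.8-fold (Cpt1b), double mutant samples between 1.05-fold and 1.30-fold. For 9 of the 10 genes ApoE-/- 1 lay above every double mutant and ApoE-/- 2 and 3 below every one, an order found in 9.77% of all tested genes. Cpt1a was the exception, highest in ApoE-/- 2 and lowest in ApoE-/- 1. Measured against ApoE-/- 1 alone, the double mutant mean was 0.727 (Acadm) to 0.857 (Acadl) of its level for the 7 genes Cpt1b, Cpt2, Acadm, Acadl, Acadvl, Hadha and Hadhb, 0.543 for Pdk4, 0.419 for Acot2 and 1.10 for Cpt1a. Measured against the mean of ApoE-/- 2 and 3, it was 3.07 (Hadha) to 5.39 (Cpt1b) times the level for those 7 genes, 3.81 for Pdk4, 1.58 for Acot2 and 0.856 for Cpt1a.

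Without ApoE-/- 1, which leaves 2 ApoE-/- samples against 3 double mutants with the same pattern of sex-linked genes, 8 of the 10 genes were higher in double mutants and 0 lower, and the median log2 fold change was 1.97, beside 0.01 over all genes tested. In that fit 25.9% of all genes passed, 13.1% as higher and 12.8% as lower. The direction was given by the order above, as ApoE-/- 2 and 3 lay below every double mutant for 9 of the 10 genes. ApoE-/- 1 differed from ApoE-/- 2 and 3 also in adipocyte and smooth muscle markers, given below. Acadl rose by 2.30 on the log2 scale (SE 0.18, edgeR adjusted p = 0.00161), Hadhb by 2.23 (SE 0.25, adjusted p = 0.00359) and Acadvl by 2.04 (SE 0.21, adjusted p = 0.003). Cpt2 rose by 2.02 (SE 0.30, adjusted p = 0.0075), Acadm by 1.72 (SE 0.15, adjusted p = 0.00208) and Hadha by 1.62 (SE 0.28, adjusted p = 0.0119). The genes with the largest errors among those called were Cpt1b, at 2.43 (SE 0.60, edgeR adjusted p = 0.0358), and Pdk4, at 1.93 (SE 0.41, adjusted p = 0.0229). Acot2, at 0.66 (SE 0.21, edgeR adjusted p = 0.0644), and Cpt1a, at -0.23 (adjusted p = 0.256), did not pass. Leaving out ApoE-/- 2 or 3 instead gave 0 of 10 called and medians of 0.40 and 0.26, where 0.534% and 0.896% of all genes passed. Leaving out any 1 double mutant gave 0 of 10, medians of 0.65 to 0.71 and 0% of all genes past the threshold. limma-voom with sample weights, which keeps all 6 samples and lets their weights differ, called the same 8 genes higher (median log2 fold change 1.51; Acadl 1.95, adjusted p = 0.0108; Pdk4 1.42, adjusted p = 0.0406), and in it 16.9% of all genes passed, 9.39% as higher.

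**Figure D2:**
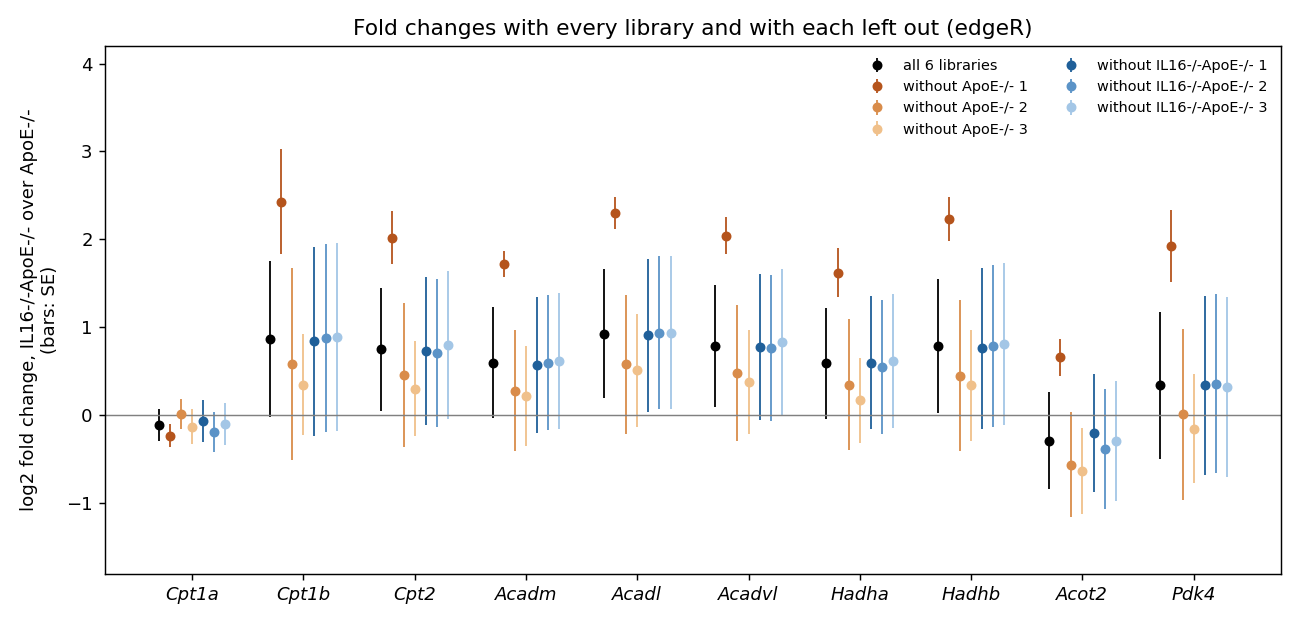
Log2 fold change of each of the 10 genes with all 6 samples and with each sample left out in turn, as marked in the key, with bars of 1 SE; without ApoE-/- 1 the values move up to 1.62 to 2.43 for the 8 genes that then pass, and the other omissions move the values less.

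Per kilobase of transcript, the double mutants held a graded order. Acadl had the highest mean at 408 CPM per kb (400.6 to 420.8), and Hadhb (337.1 to 359.8), Acadm (329.8 to 352.8) and Acadvl (312.3 to 339.7) followed with ranges that overlapped from each to the next. Hadha lay lower at 142.1 CPM per kb (136.2 to 150.7) and Pdk4 at 122.6 (119.6 to 126.1). Cpt2 at 86.2 (79.3 to 90.7) and Cpt1b at 85.9 (83.0 to 89.5) did not differ beyond their spread. Cpt1a at 22.7 CPM per kb (20.9 to 25.2) and Acot2 at 5.75 (4.99 to 6.48) were lowest. These levels rest on the median transcript length of each gene in GENCODE M21, since the isoforms counted were not given in the sources used here. They leave out reads counted on Gm13910, a copy of Hadhb described below (160 to 169 CPM in double mutants). The place of Hadhb next to Acadl is therefore uncertain.

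Ratios between genes within a library do not depend on its scaling. Of the carnitine palmitoyltransferase 1 forms, Cpt1b spanned 17.8-fold in the ApoE-/- samples and Cpt1a 1.40-fold. Cpt1b to Cpt1a counts stood at 3.53, 0.599 and 0.169 in ApoE-/- 1, 2 and 3 and at 2.88, 2.26 and 2.51 in double mutants. Cpt1b thus had more counts than Cpt1a in ApoE-/- 1 and all double mutants and fewer in ApoE-/- 2 and 3. The log2 ratio was -0.50 ± 2.21 (SD, n = 3) against 1.34 ± 0.17 (SD, n = 3), a difference of 1.84 (two-sided exact permutation p = 0.4, where 0.1 is the smallest p that 3 against 3 allows). That difference was 3.00 without ApoE-/- 1 and 0.80 without ApoE-/- 3. Hadha to Hadhb counts stood at 0.822, 1.28 and 1.15 in ApoE-/- and 0.762, 0.856 and 0.794 in double mutants. Median transcript lengths are 4017 bases for Hadha and 2045 for Hadhb, so a count ratio above or below 1 does not rank them. Per kb, Hadhb ran from 54.6 to 456.2 CPM in ApoE-/- and 337.1 to 359.8 in double mutants, and Hadha from 32.1 to 190.8 and 136.2 to 150.7. The difference of the log2 ratio of Hadha to Hadhb counts was -0.41 (two-sided exact permutation p = 0.2), and -0.60 without ApoE-/- 1. Pdk4 made up 74.5%, 57.7% and 34.5% of the counts per kb of the 4 pyruvate dehydrogenase kinase genes, Pdk1 to Pdk4, in ApoE-/- and 69.6%, 66.4% and 70.0% in double mutants. These shares were 55.6% ± 20.1 (SD, n = 3) and 68.6% ± 1.99 (SD, n = 3), with a two-sided exact permutation p of 0.4. Their difference of 13.05 percentage points was 22.52 without ApoE-/- 1 and 2.53 without ApoE-/- 3.

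**Figure D3:**
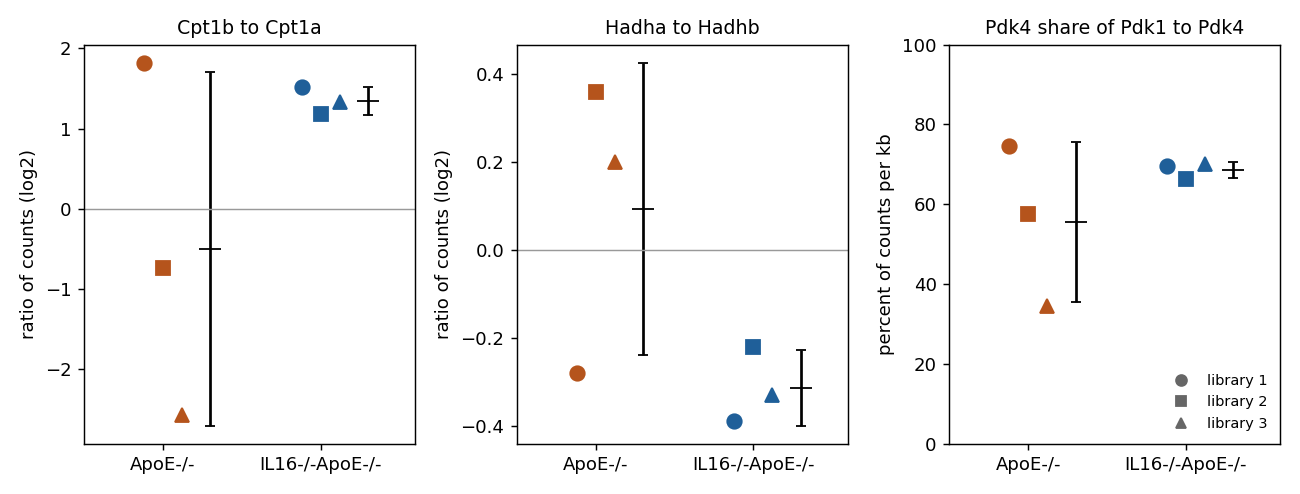
The within-library ratios Cpt1b to Cpt1a and Hadha to Hadhb, as log2 of the ratio of counts, and the Pdk4 share of pyruvate dehydrogenase kinase counts per kb in each sample, with the group mean (dash) and SD (bar) beside the points; ApoE-/- 2 and 3 lie on the other side of the double mutants from ApoE-/- 1 for Cpt1b to Cpt1a.

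Several of the counts may hold reads of other genes. Of the 50-base windows of Cpt1b transcripts, 78.6% also lie in Gm44502, an annotated gene on the same strand that spans Chkb and Cpt1b, and its counts were 0% to 57.2% of those of Cpt1b. With Gm44502 added to Cpt1b, the difference of the log2 Cpt1b to Cpt1a ratio was 1.55 (two-sided exact permutation p = 0.4). Hadhb shares 18.1% of its windows with the processed copy Gm13910, counted at 21.7% to 28.5% of Hadhb. With the copies Gm13910 and Gm9108 added to Hadhb, the ratio of Hadha to Hadhb counts, not adjusted for length, was 0.621 to 0.993 in the 6 libraries. Acot2 shares 24.5% of its windows with its neighbour Acot1, counted at 22.7% to 43.8% of Acot2. The Acot1 and Acot2 counts taken as 1 gene had a log2 fold change of -0.27 (SE 0.60, edgeR adjusted p = 0.838). Acadvl overlaps Dvl2 on the opposite strand by 2119 bases, and the strand setting of the counting was not given in the sources used here. For Cpt1a, Cpt2, Acadm, Acadl, Acadvl, Hadha and Pdk4, at most 2.04% of the windows occur in another gene.

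The rest of the pathway was described through 12 lists of 126 distinct genes outside the 10, of which 124 were tested. By edgeR 0 of the 124 passed the threshold (lowest adjusted p = 0.0667, for Mt1), beside 1.2% of all tested genes. In that test 13 had an unadjusted p under 0.05, beside 15.9% of all tested genes. DESeq2 called 7 (Fabp3, Cyp4a14, Ndufa4, Cox5b, Cox6c, Mt1 and Mt2) and limma-voom called 1 (Mt1). They called 8.59% and 2.06% of all genes they tested. The log2 fold change was positive for 98, with a median of 0.47. ApoE-/- 1 lay above and ApoE-/- 2 and 3 below all double mutants for 77 of the 124, beside 9.77% of all tested genes. Without ApoE-/- 1, 85 of the 124 were higher and 4 lower, Cpt1c, Pdp1 and Foxo1 among them, beside 13.1% and 12.8% of all genes.

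Of the 14 other enzymes of beta-oxidation, 0 passed with all samples (median log2 fold change 0.57), and 13 were higher without ApoE-/- 1 (median 1.75). Among all genes, the fit without ApoE-/- 1 called 13.1% higher and 12.8% lower. Acaa2, the thiolase of shorter chains, stood at 510, 128 and 65.9 CPM in the ApoE-/- samples, against 543, 473 and 476 CPM in double mutants (log2 fold change 1.08, SE 0.72, edgeR adjusted p = 0.488). Etfb, which takes electrons from the acyl-CoA dehydrogenases, stood at 343, 82.0 and 75.0 CPM and at 375, 309 and 306 CPM. Of 10 genes of activation and carnitine import, 0 passed with all samples (median 0.06), and 5 were higher and 1 lower without ApoE-/- 1. Slc25a20, the translocase between the palmitoyltransferase steps, stood at 186, 42.3 and 25.0 CPM in the ApoE-/- samples, against 167, 176 and 155 CPM in double mutants. Cpt1c, the form of neurons, ran the other way, at 18.4, 35.2 and 46.3 CPM against 21.4, 21.2 and 21.1 CPM.

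Downstream of acetyl-CoA, 0 of 11 citric acid cycle genes and 0 of 19 respiratory chain genes passed with all samples by edgeR (medians 0.75 and 0.61). Without ApoE-/- 1, 10 and 19 of them were higher, beside 13.1% of all genes. In 6 of the 19 respiratory chain genes every double mutant lay above every ApoE-/- sample, where 14.9% of all tested genes did so. Cox6c, a subunit of cytochrome oxidase, stood at 131, 42.9 and 46.2 CPM in the ApoE-/- samples, against 272, 255 and 256 CPM in double mutants (log2 fold change 1.83, SE 0.46, edgeR adjusted p = 0.139). Ndufa4, another, stood at 112, 26.1 and 33.5 CPM and at 234, 216 and 219 CPM (1.97, SE 0.56, adjusted p = 0.178). Both exceeded ApoE-/- 1 in every double mutant, as none of the members but Cpt1a did. Cs, which joins acetyl-CoA to oxaloacetate, stood at 749, 267 and 191 CPM and at 747, 694 and 682 CPM, and Mdh2, the malate dehydrogenase of the cycle, at 318, 112 and 95.2 CPM and 382, 360 and 369 CPM.

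Of the 13 genes of the pyruvate dehydrogenase list, 0 passed with all samples (median 0.23), and 8 were higher and 1 lower without ApoE-/- 1. The fit without ApoE-/- 1 called 13.1% of all genes higher and 12.8% lower. Pdp1, a phosphatase that undoes the action of Pdk4, stood at 19.7, 29.7 and 35.4 CPM in the ApoE-/- samples, against 18.5, 17.2 and 18.8 CPM in double mutants, with no overlap (log2 fold change -0.64, SE 0.23, edgeR adjusted p = 0.267). Over all tested genes, the groups did not overlap in 26.4%. Pdk3 stood at 10.4, 17.9 and 21.2 CPM and at 11.4, 12.6 and 14.6 CPM, opposite in order to Pdk4 within ApoE-/-. Malonyl-CoA, which blocks carnitine palmitoyltransferase 1, is made by acetyl-CoA carboxylase and removed by Mlycd. Acaca, a carboxylase gene, stood at 635, 130 and 48.2 CPM in the ApoE-/- samples, against 203, 212 and 258 CPM in double mutants, and Mlycd at 61.8, 21.5 and 22.2 CPM and 37.6, 40.0 and 35.5 CPM. Of the 3 genes of that list 0 passed with all samples (median 0.04), and 2 were higher without ApoE-/- 1 (median 1.33).

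Among 10 regulators, 0 passed with all samples (median 0.37), and 5 were higher and 1 lower without ApoE-/- 1. For this and the lists below, the fit without ApoE-/- 1 called 13.1% of all genes higher and 12.8% lower. Esrra, an estrogen-related receptor that drives mitochondrial genes, stood at 60.9, 21.7 and 21.6 CPM in the ApoE-/- samples, against 41.9, 49.3 and 49.0 CPM in double mutants. Foxo1, a fasting-responsive factor that acts on Pdk4 in several tissues, stood at 67.3, 80.2 and 92.2 CPM and at 62.4, 54.6 and 68.4 CPM, lower in ApoE-/- 1 than in ApoE-/- 2 and 3. Of 13 tested PPAR targets 0 passed by edgeR (median 0.69) and 2 by DESeq2, which called 8.59% of all genes it tested. Without ApoE-/- 1, 7 of these targets were higher and 1 lower by edgeR (median 1.75). Cyp4a10 and Cyp4a14, omega-hydroxylases of fatty acids abundant in kidney and liver, stood at 0, 0.688 and 0 CPM and at 0, 0.588 and 0.0870 CPM in ApoE-/-, and at 6.28 to 9.72 CPM and 1.58 to 5.12 CPM in double mutants. Of 11 peroxisomal genes 0 passed (median 0.06), and 7 were higher without ApoE-/- 1. Hsd17b4, the multifunctional enzyme of peroxisomes, stood at 174, 92.5 and 59.9 CPM and at 156, 171 and 160 CPM, and the transporter gene Abcd2 at 66.0, 21.4 and 9.77 CPM and 44.0, 63.1 and 49.3 CPM. Of 10 tested thioesterases besides Acot2, 0 passed (median 0.05), and 5 were higher without ApoE-/- 1. Acot7 stood at 21.7, 16.4 and 14.0 CPM in the ApoE-/- samples, against 25.8, 26.8 and 26.6 CPM in double mutants, and Acot13 at 38.5, 14.8 and 16.4 CPM and 47.4, 38.8 and 41.1 CPM, each without overlap of the groups. In 3 of these 10 thioesterases every double mutant lay above every ApoE-/- sample, where 14.9% of all tested genes did so.

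**Figure D4:**
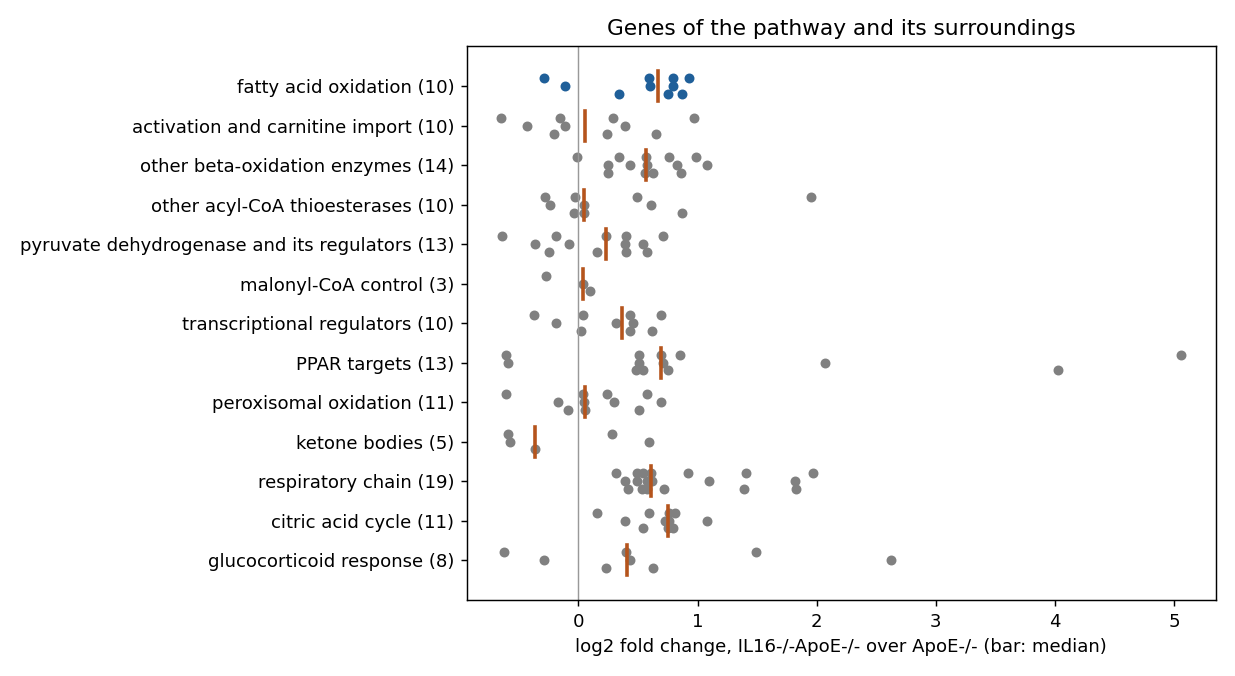
Log2 fold change of every tested gene of the 10 and of the pathway lists with all 6 samples, 1 point per gene and a bar at each list's median; the members' median is 0.67, and the medians of the citric acid cycle and respiratory chain lists are 0.75 and 0.61.

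Among 10240 other genes of at least 10 CPM on average, the 5 whose centred log2 levels lay nearest to the median of the 10 genes over the 6 libraries were Acsl1, Idh3a, Eci1, Pank1 and Angptl4, with root mean square differences of 0.05, 0.05, 0.08, 0.09 and 0.09. Acsl1, which activates long-chain fatty acids for import, stood at 1092, 284 and 150 CPM in the ApoE-/- samples, against 775, 862 and 751 CPM in double mutants. Idh3a, of the citric acid cycle, stood at 596, 167 and 86.3 CPM and at 501, 492 and 448 CPM. Acsl1, Idh3a, Eci1 and Angptl4 were on the pathway lists. Within the 10, the same difference from their median was 0.09 for Cpt2 and Acadvl, 0.12 for Hadha, 0.17 for Hadhb, 0.18 for Acadm, 0.21 for Acadl and 0.27 for Pdk4, and larger for Cpt1b (0.53), Acot2 (0.62) and Cpt1a (1.11).

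Cell type markers also varied between the samples. The 10 white adipocyte markers summed to 10180, 1828 and 1269 CPM in ApoE-/- 1, 2 and 3 and to 7365 to 7936 CPM in double mutants, with Fabp4 at 3002, 364.5 and 426 CPM and 3402 to 3635 CPM, and Lpl at 2130, 783 and 257 CPM and 1265 to 1429 CPM. Of the 10, 1 passed the test as higher, the leptin gene Lep, at 0.871 to 2.05 CPM in ApoE-/- samples and 18.7 to 22.0 CPM in double mutants (edgeR adjusted p = 0.0168), and it was lowest in ApoE-/- 1. The brown adipocyte list (9 markers, 0 of 8 tested past the threshold) summed to 2452, 737 and 319 CPM in ApoE-/- and to 2303 to 2673 CPM in double mutants, with Ucp1, the uncoupling protein of brown fat, at 1592, 385 and 75.9 CPM and 1412 to 1777 CPM, and Cidea at 478, 81.6 and 37.1 CPM and 433 to 558 CPM. That sum did not speak for every brown marker. Only 5 of the 8 had a positive log2 fold change (the lowest was -1.12), and 2 of the 8 were highest in ApoE-/- 1. Smooth muscle markers (0 of 6 past the threshold, none at 0 in any library) ran the other way, at 4289, 19090 and 27420 CPM in the ApoE-/- samples, against 8613 to 9749 CPM in double mutants, with Acta2 at 1798 to 11550 CPM and 3823 to 4305 CPM and Myh11 at 1158 to 8497 CPM and 2031 to 2345 CPM. In centred log2 units, the median of the 10 genes was 0.99, -0.92 and -1.77 in ApoE-/- 1, 2 and 3 and 0.54 to 0.63 in double mutants, that of white adipocyte markers 1.33, -1.50 and -1.96 and 0.59 to 0.66, and that of smooth muscle markers -1.36, 0.91 and 1.30 and -0.38 to -0.23. The part of these cells in the levels of the 10 genes was not tested.

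Kidney proximal tubule markers summed to 10.7, 4.62 and 1.39 CPM in ApoE-/- and to 511 to 566 CPM in double mutants, and 9 of the 12 passed the test as higher. Of the 12, 7 (Kap, Miox, Acsm2, Slc5a2, Slc22a6, Slc22a12 and Mep1a) had no count in any ApoE-/- library. Kap stood at 349 to 389.5 CPM and Acsm2 at 37.4 to 40.3 CPM in double mutants. Cardiac muscle markers summed to 97.8 to 129 CPM in the ApoE-/- samples, against 267 to 502 CPM in double mutants (2 of 12 higher by edgeR, 10 by DESeq2), and skeletal muscle markers to 4.93 to 12.7 CPM and 22.8 to 404 CPM (0 of 11 by edgeR, 8 higher by DESeq2), with Myh6 at 8.12 to 45.2 CPM and 74.2 to 165 CPM, Ryr2 at 11.5 to 78.3 CPM and 24.7 to 27.3 CPM, Acta1 at 0.301 to 2.41 CPM and 4.198 to 81.8 CPM, and Atp2a1 at 0.330 to 1.17 CPM and 2.44 to 56.99 CPM. Hepatocyte markers summed to 0.236 to 56.3 CPM and 4.33 to 5.33 CPM, endothelial markers to 562 to 990 CPM and 1144 to 1190 CPM, macrophage markers to 337 to 4263 CPM and 4177 to 5948 CPM, and fibroblast markers to 2099 to 4325 CPM and 3323 to 3657 CPM. Their most abundant genes were Alb (0 to 43.5 CPM and 1.22 to 2.79 CPM) and Serpina1c (0.137 to 3.97 CPM and 0.714 to 0.853 CPM) for hepatocytes, and Pecam1 (309 to 396 CPM and 443 to 467 CPM) and Vwf (109.5 to 316 CPM and 371 to 393 CPM) for endothelium. For macrophages they were Lyz2 (258.5 to 3561 CPM and 3527 to 5095 CPM) and Cd68 (14.5 to 158 CPM and 264 to 338 CPM), and for fibroblasts Dcn (1304 to 2435 CPM and 1632 to 1737 CPM) and Lum (189 to 850.3 CPM and 975 to 1130 CPM). By edgeR 0 markers of the skeletal muscle, hepatocyte, endothelial, macrophage and fibroblast lists passed with all samples. Over all genes tested, edgeR called 1.14% as higher and DESeq2 called 8.59% in either direction. Without ApoE-/- 1, edgeR called 9 of 10 white adipocyte, 5 of 8 brown adipocyte, 10 of 12 cardiac, 6 of 11 skeletal muscle, 11 of 12 kidney and 6 of 6 endothelial markers higher and 6 of 6 smooth muscle markers lower, beside 13.1% and 12.8% of all genes. In that fit 1 brown adipocyte and 1 cardiac marker were lower, 1 of 6 macrophage markers was higher, and 0 fibroblast or hepatocyte markers passed. The part of all these cells in the levels of the 10 genes was not tested.

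**Figure D5:**
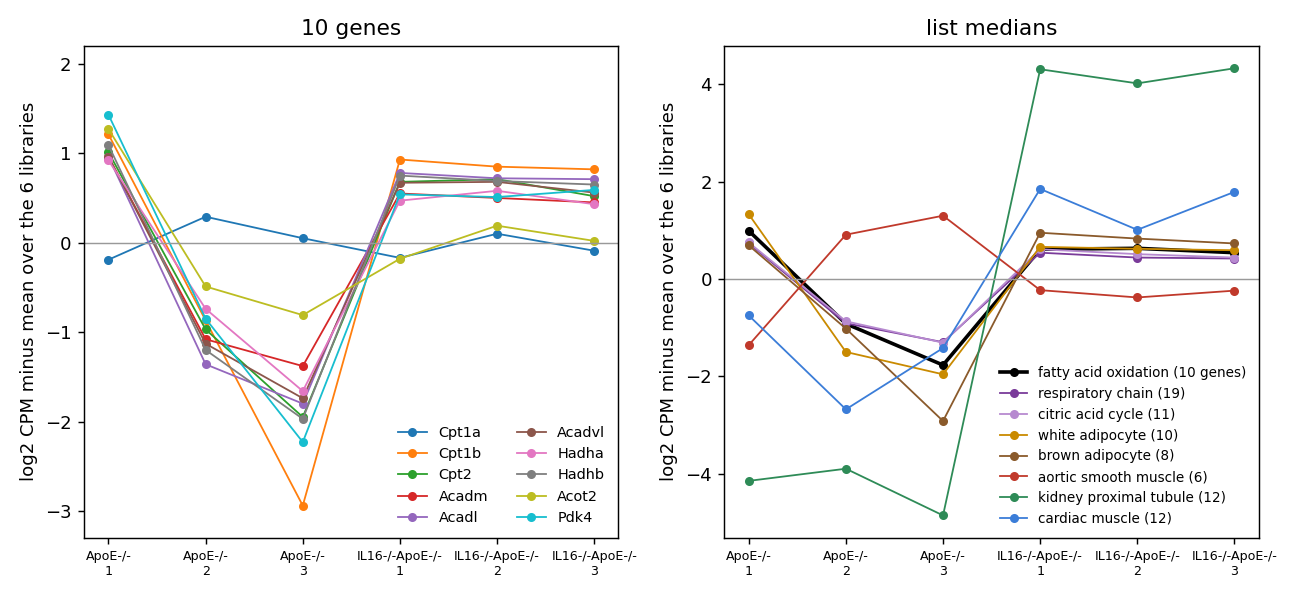
Centred log2 CPM in the 6 samples for each of the 10 genes, for their median and for the medians of some lists. The lists drawn are respiratory chain, citric acid cycle, white adipocyte, brown adipocyte, aortic smooth muscle, kidney proximal tubule and cardiac muscle. Other lists are not drawn. Lines join the values of 1 gene or list and imply no order of samples. The median of the 10 genes is 0.99 in ApoE-/- 1, -0.92 in ApoE-/- 2 and -1.77 in ApoE-/- 3 and lies at 0.54 to 0.63 in the double mutants.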

How the data were processed

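The authors deposited raw read counts per gene for 6 samples of mouse aorta, without normalization, as judged from whole numbers and unequal totals. RNA was taken up in TRIzol, captured on oligo(dT) beads and made into strand-marked libraries, per the labels' protocols. Cutadapt, HISAT2 and StringTie are named per the submitters' processing notes. Their versions, the genome build, the annotation, the counting program and the strand it used were not given in the sources used here. Any reads common to near-identical or overlapping genes may have been split between them.

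IDs were matched to GENCODE M21 (GRCm38), with 55141 of 55401 matched. The groups were compared with edgeR 4.0.16 (R 4.3.3) by the quasi-likelihood test with TMM factors, the filterByExpr filter (minimum count 10, minimum total 15) and Benjamini-Hochberg adjustment at 0.05. Each SE of an edgeR log2 fold change was derived from the test, as its absolute value divided by the square root of the F statistic. limma 3.58.1 (limma-voom) and DESeq2 1.42.0 were alternatives. The procedure was also run on simulated data with the same spread in both groups. That run cannot show how the tests behave with the unequal spread of these groups. Centred levels are log2 CPM with a prior count of 2. A library's 3 counts, the limit that a count of 0 allows, equal 0.0358 to 0.0430 CPM in ApoE-/- and 0.0630 to 0.0698 CPM in double mutants, for counting error only. Within-library ratios were compared by two-sided exact permutation tests.

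The 10 genes and all lists were chosen with earlier results of these data known. Named were all 10 genes, from each pathway list up to 4 genes past the threshold or else the 2 of smallest p, the 2 most abundant genes of each marker list, and the 5 genes most like the 10. Lep was added after its value was seen. A gene that the rule also names is not reported here. Promoter sequences come from RefSeq.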

Additional observations from a re-analysis of the deposited data

How the results depend on the processing

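With all 6 samples, 238 genes passed the threshold by edgeR. DESeq2 called 1697, limma-voom 409 and limma-voom with sample weights 3351. Leaving out 1 sample gave 0 to 5231 genes (5231 without ApoE-/- 1, 108 without ApoE-/- 2, 182 without ApoE-/- 3 and 0 without any 1 double mutant). Of the 10 genes, 0 passed in every fit with all samples but sample weights (8), and 0 to 8 with a sample left out, 8 without ApoE-/- 1. Their median log2 fold change ran from 0.26 to 1.97 with a sample left out, 1.97 without ApoE-/- 1.

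Over 10 alternatives that keep all samples, the 34 named genes gave 303 of 340 values with the same direction and side of the threshold. Another 32 crossed the threshold and 5 reversed. Acaca (-0.27) reversed with limma-voom (0.51), sample weights (0.82) and the replicate block (0.53), and Acot2 (-0.29) with sample weights (0.36) and the replicate block (0.05). With a sample left out, log2 fold changes ran from -0.77 to 1.33 for Acaca, -0.63 to 0.66 for Acot2, -0.23 to 0.02 for Cpt1a, -0.15 to 0.79 for Mlycd and -0.15 to 1.93 for Pdk4. Other scaling factors and filters left the call of all 10 genes the same. The within-library differences kept their sign but not their size, at 0.80 to 3.00 (log2) for Cpt1b to Cpt1a, -0.60 to -0.28 for Hadha to Hadhb and 2.53 to 22.52 percentage points for the Pdk4 share with a sample left out, and no setting could bring their exact test under 0.05. Adding Gm44502, or Gm13910 and Gm9108, was chosen after seeing the data. The cause of these changes was not tested.

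No pairing by sample number was seen: deviations of same-numbered samples from their group means correlated at -0.0417, -0.0381 and -0.0136. Differently numbered samples correlated at -0.0667 to 0.091. With 3 samples per group these values cannot exclude a pairing. With the replicate block 0 genes passed. The lowest count of any of the 10 genes in a library was 476 (Acot2).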

Other observations

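Oxct1, which activates ketone bodies for use, was lowest in ApoE-/- 1 and highest in ApoE-/- 3, the reverse of 9 of the 10 genes within that group. It stood at 304.5, 422 and 581 CPM in ApoE-/- 1, 2 and 3, against 350.4, 327 and 344 CPM in double mutants (log2 fold change -0.36, SE 0.28, edgeR adjusted p = 0.559).

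Of 8 genes that respond to glucocorticoids, hormones that also act on Pdk4, 0 passed by edgeR, 4 had an unadjusted p under 0.05 (15.9% of all tested genes did), and DESeq2 called 2 (8.59% of all genes it tested), the metallothioneins Mt1 and Mt2. Without ApoE-/- 1, edgeR called 4 of the 8 higher and 0 lower, beside 13.1% and 12.8% of all genes. Zbtb16, at 14.9, 20.1 and 13.0 CPM in the ApoE-/- samples, against 11.7, 11.3 and 8.19 CPM in double mutants (log2 fold change -0.62, SE 0.25, edgeR adjusted p = 0.298), and Klf9 (-0.29, SE 0.19, adjusted p = 0.472) lay lower in every double mutant, and both were named after their values were seen. Over all tested genes, 26.4% had groups that did not overlap. Mt1 stood at 49.0, 27.9 and 26.7 CPM in the ApoE-/- samples, against 95.3, 104.9 and 90.9 CPM in double mutants (log2 fold change 1.49, SE 0.27, edgeR adjusted p = 0.0667). Mt2 stood at 21.96, 13.7 and 4.42 CPM and at 73.4, 91.2 and 81.4 CPM (2.62, SE 0.55, adjusted p = 0.0969). Both metallothioneins were higher in each double mutant than in every ApoE-/- sample. The part of glucocorticoids in the levels of Pdk4 was not tested.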
